A study of Rattus norvegicus with 3 samples.

Results

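Histone genes were examined in kidney RNA of 3 rat strains. The members were all protein-coding records whose gene name starts with *Hist1*, *Hist2*, *Hist3* or *H2af*, which gave 36 of 33194 records (22938 of them protein-coding), and they were grouped by the histone type in their name. There were 3 linker histone H1 records, 11 H2A, 6 H2A variants (the *H2af* names), 11 H2B, 1 H3 and 4 H4. Each strain was represented by 1 library of total RNA from kidney, depleted of ribosomal RNA before sequencing, in a study that catalogued long non-coding RNAs. Dahl S is the Dahl salt-sensitive rat, in which a high-salt diet raises blood pressure, SHR is the spontaneously hypertensive rat, and Dahl R is the Dahl salt-resistant rat. All animals were weaned at 30 days and then ate a low-salt diet (0.3%). The labelled ages were 53 days for Dahl S, 55 days for SHR and 54 days for Dahl R, although the labels also give all rats a shared day of birth. The labels used here do not say how many animals a library holds. With 1 library per strain, no difference could be tested against the spread between animals, and strain, age and library cannot be told apart.

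Histones are the proteins around which DNA is wound. The nucleosome core holds H2A, H2B, H3 and H4, and H1 binds the DNA that enters and leaves it. Most genes named *Hist* are replication-dependent: they lie in clusters, lack introns, are transcribed in S phase, and give messages that end in a stem-loop in place of a poly(A) tail. Variant histones such as those of the *H2af* names are made through the cell cycle, mostly from single genes with polyadenylated messages. Removal of ribosomal RNA does not select for a poly(A) tail, so both kinds of message can enter such libraries.

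Levels are FPKM (fragments per kilobase of transcript, scaled to the number of mapped fragments), with the deposited lower and upper limit in parentheses. The sources used here give no confidence level for the limits, and they describe 1 library, not the variation between animals. Records averaging at least 1 FPKM across the libraries count as measured, which 32 of the 36 members reached. The other 4, *Hist1h1b*, *Hist1h2af*, *Hist1h2ao* and *H2afb3*, were listed at 0 to 1.54 FPKM. The tables hold no fragment totals. Among measured members the upper limit lay above the value by a median of 62.0% in Dahl S, 55.4% in SHR and 61.7% in Dahl R, against 34.2%, 32.6% and 33.3% for the 11 members with a mean of at least 5 FPKM, in the same order of libraries. The levels of most members are therefore imprecise even within a library.

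All 22 *Hist1* members lay on chromosome 17, in a block of 10 records between 48289528 and 48773094 and another of 12 records between 50111885 and 50436724 (positions of the deposited tables, for which the sources used here name no genome build). Of the 30 *Hist* members 24 spanned less than 1000 bases, and for 23 the span was a multiple of 3. Their shortest spans are coding lengths, such as 312 bases for H4 and 381 for H2B, so fragments from untranslated ends are not counted in such records. Copies of a core histone gene are known to encode identical or nearly identical proteins, and the sequences of these records were not compared here. The sources used here do not say how fragments matching several copies were divided, and the level of any single copy is uncertain. The record *Hist1h2ail* carries an H2A name and an H3 description in the tables, and it was counted by its name. Its span of 411 bases equals that of the H3 record *Hist2h3c2*, compared with 393 bases for the H2A record *Hist2h2ab*.

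The variants *H2afj* and *H2afy* were the most abundant members by mean level. *H2afj* (ENSRNOG00000033045, chromosome 4, 173818670 to 173819152), which encodes H2A.J, stood at 102 FPKM (71.04 to 133) in Dahl S, 94.6 (66.9 to 122) in SHR and 99.2 (69.8 to 129) in Dahl R. *H2afy*, the gene of macroH2A1, a variant with a large extra domain that is enriched on silenced chromatin, stood at 53.6 FPKM (43.1 to 64.04) in Dahl S, 57.8 (47.2 to 68.3) in SHR and 52.3 (42.4 to 62.2) in Dahl R. The third was the H2B record *Hist1h2bh*, at 54.5 FPKM (38.1 to 70.96) in Dahl S, 46.8 (33.1 to 60.6) in SHR and 43.9 (30.8 to 57.1) in Dahl R. The limits of the 3 libraries overlapped for each of these records. Together the 3 records made up 53.4% of the summed FPKM of all members in Dahl S, 55.7% in SHR and 53.5% in Dahl R. The *Hist1h2bh* record spans 11461 bases and shares its locus with other records, so its part of this share is uncertain. The sum over all members was 394 FPKM in Dahl S, 357 in SHR and 366 in Dahl R, or 0.0736%, 0.0660% and 0.0675% of all protein-coding FPKM. The other members had lower means, the next being *Hist2h2ac* at 25.0 FPKM. Over all 32 measured members, with *H2afj*, *H2afy* and *Hist1h2bh* included, the median of the means was 3.76 FPKM.

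**Figure D1:**
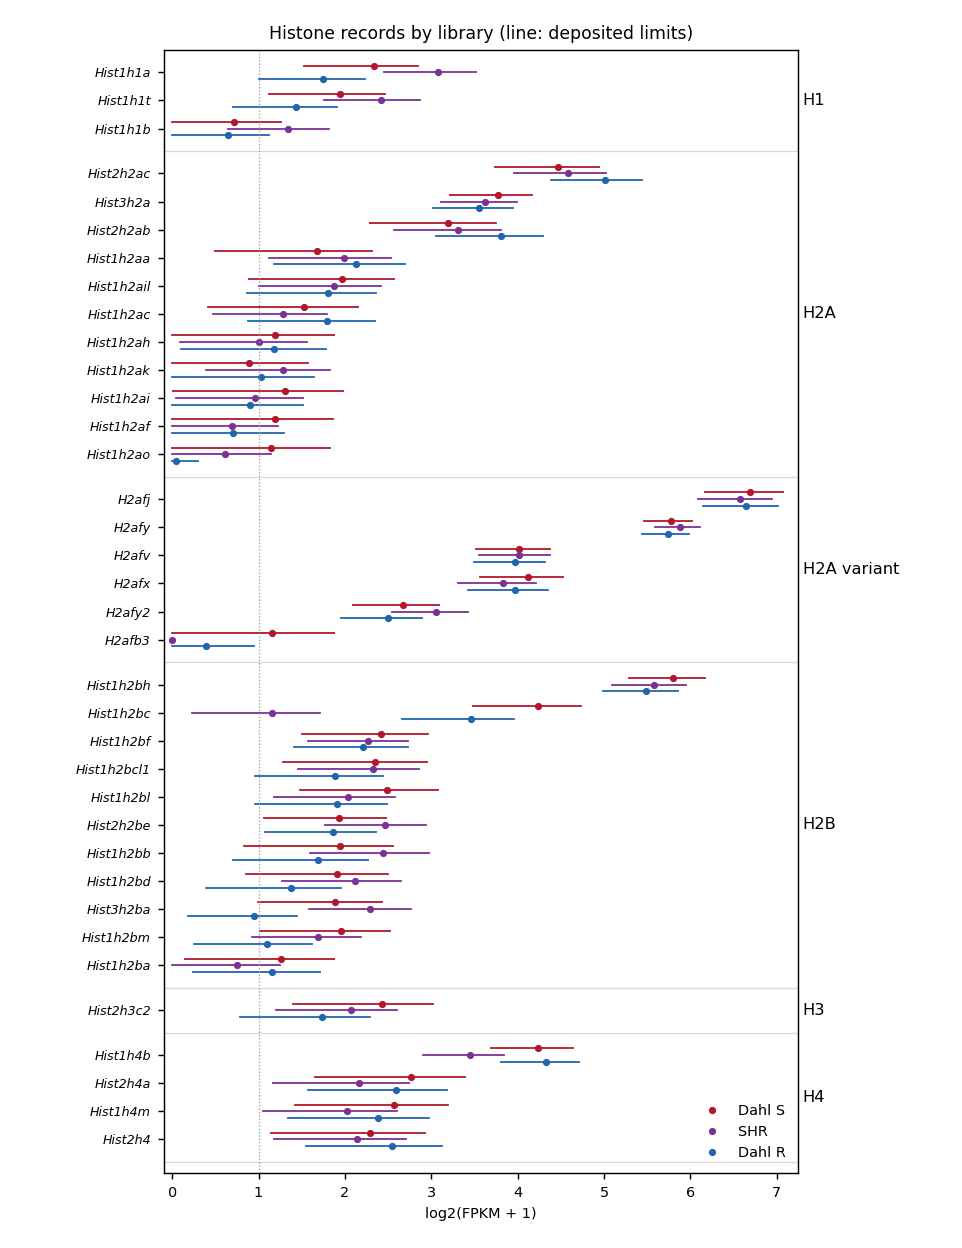
Levels of the 36 histone records in the Dahl S, SHR and Dahl R libraries, as log2 of FPKM plus 1, grouped by histone type. Points are the values, lines the deposited limits, and the dotted line marks 1 FPKM; *Hist1h2bc* in SHR, at 1.22 FPKM, is the point that lies farthest from its counterparts.

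Differences between strains were described by size: 1 was added to each FPKM, and a measured record counts as called, higher or lower, where the resulting log2 ratio reached a size of 1 (2-fold). In Dahl S compared with Dahl R, 0 of 32 measured members were called, where 1.97% of 14183 measured protein-coding records were, with 1.07% higher and 0.895% lower. In Dahl S compared with SHR, 1 of 32 was called, *Hist1h2bc*, which was higher, against 2.97% of protein-coding records (1.58% higher and 1.39% lower). In SHR compared with Dahl R, 3 of 32 were called (9.38%), with *Hist1h1a* and *Hist3h2ba* higher and *Hist1h2bc* lower, against 2.78% of protein-coding records (1.57% higher and 1.21% lower). The deposited limits of both libraries were apart for every one of these calls, 0, 1 and 3 in the 3 pairs. Calls with limits apart made up 1.29%, 2.14% and 2.26% of protein-coding records. Limits were apart for no other measured member, while 1.95%, 3.65% and 3.7% of protein-coding records had limits apart at any size, in the same order of pairs. Since most members are short, the share called among the 883 measured protein-coding records spanning under 1000 bases is also given. It was 3.96% in the first pair, 4.98% in the second and 3.62% in the third. Limits were apart at any size for 3, 13 and 14 of these 883 records, in the same order of pairs.

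The median log2 ratio of the 32 members was 0.18 for Dahl S over Dahl R, 0.13 for Dahl S over SHR and 0.06 for SHR over Dahl R. Over all measured protein-coding records the medians were 0.04, -0.002 and 0.04, in the same order of pairs. Over those spanning under 1000 bases they were 0.08, 0.006 and 0.06. Every pair shares a library with each of the others, so the pairs are not independent. Among the measured members 16 had their highest value in Dahl S, 10 in SHR and 6 in Dahl R. The highest of the 3 values was a median of 1.69 times the lowest for the 21 members with means of 1 to 5 FPKM, compared with 1.504 times for all 4161 protein-coding records at that level. For the 7 members of 5 to 20 FPKM it was 1.57 times, compared with 1.24 times for 5684 records, and for the 4 above 20 FPKM it was 1.17 times, compared with 1.19 times for 3750 records. Over all levels it was 1.63 times for the 32 members and 1.27 times for 14183 protein-coding records. For the 883 records spanning under 1000 bases it was 1.35 times, and these were not split by level.

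**Figure D2:**
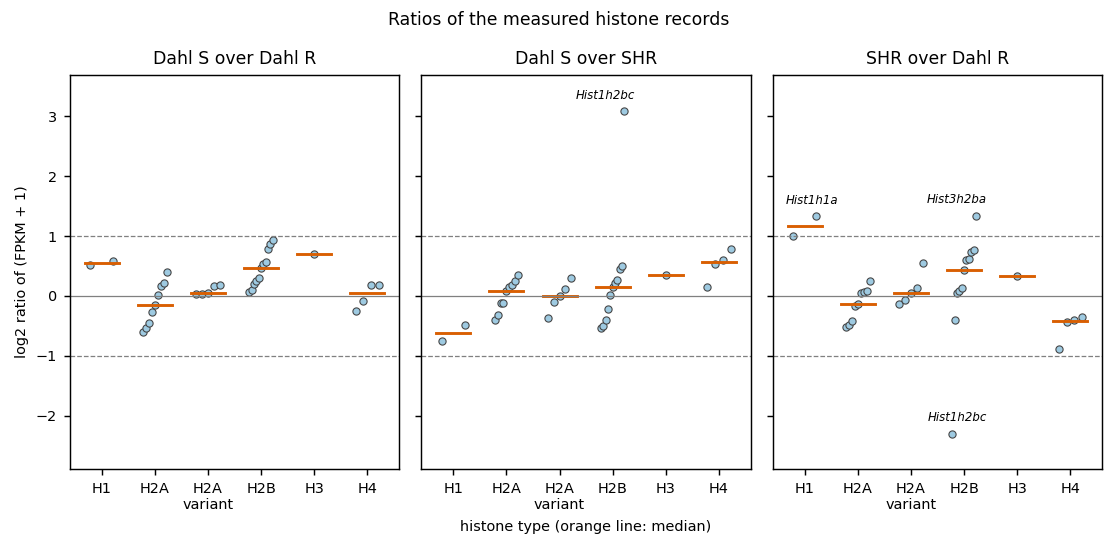
Log2 ratios of FPKM plus 1 for the 32 measured histone records in the 3 pairs of libraries, by histone type. Each point is a record, orange lines are medians and dashed lines mark a 2-fold difference; the named points are the calls, with *Hist1h2bc* at 3.08 for Dahl S over SHR and -2.30 for SHR over Dahl R.

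*Hist1h2bc* (ENSRNOG00000030526, chromosome 17, 50118776 to 50119156, minus strand), a replication-dependent H2B gene of the second block, set SHR apart from both Dahl strains. Its level was 17.8 FPKM (10.2 to 25.5) in Dahl S, 1.22 (0.168 to 2.27) in SHR and 9.96 (5.35 to 14.6) in Dahl R. Both Dahl values lay above the SHR value with limits apart, while the limits of the Dahl strains overlapped each other. In FPKM the Dahl S value was 14.6 times that of SHR, and the SHR value was 0.122 times that of Dahl R. On the scale with 1 added, the log2 ratio was 0.78 for Dahl S over Dahl R, 3.08 for Dahl S over SHR and -2.30 for SHR over Dahl R. By the second ratio it ranked 4 from the top of 14183 protein-coding records, and by the third 11 from the bottom. In bulk tissue, fewer cells that make a message and less message per cell cannot be told apart. How fragments matching other H2B copies were divided is not given, and sequences of the strains were not used. The part of either in the SHR value was not tested.

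The neighbours of *Hist1h2bc* within 20 kb were other histone records, and none was called in any pair. Across a gap of 323 bases and on the opposite strand lies the H2A record *LOC680322*, at 1.84 FPKM (0.1805 to 3.501) in Dahl S, 1.97 (0.638 to 3.298) in SHR and 2.29 (0.675 to 3.91) in Dahl R. The limits of these values overlapped in all 3 libraries. *Hist1h4b*, on its other side, stood at 17.9 FPKM (11.9 to 23.9) in Dahl S, 9.92 (6.504 to 13.3) in SHR and 19.1 (13.02 to 25.2) in Dahl R, and so was also lowest in SHR, with limits apart in no pair. *Hist1h2ac* stood at 1.89 FPKM in Dahl S, 1.43 in SHR and 2.47 in Dahl R, and the H2B record *LOC100365976* at 1.23 FPKM in Dahl S, 2.27 in SHR and 0.818 in Dahl R. The last was highest in SHR, with overlapping limits.

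**Figure D3:**
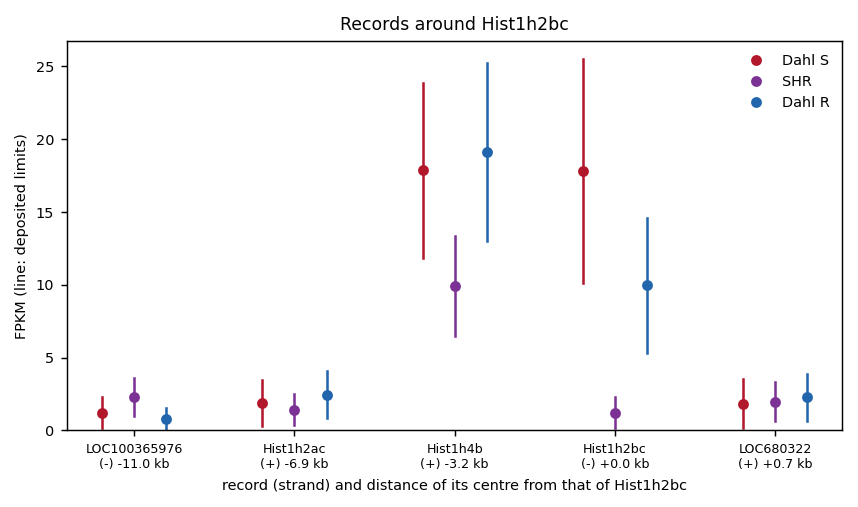
FPKM of *Hist1h2bc* and the 4 records within 20 kb of it, ordered along chromosome 17, in Dahl S, SHR and Dahl R. Points are values and lines the deposited limits; *Hist1h2bc* in SHR, at 1.22 FPKM, lies below both Dahl values, and *LOC680322* next to it ranges from 1.84 to 2.29 FPKM.

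The start regions of the called members are shown so that their elements can be set beside those of an H2A cluster gene and an H2A variant gene that were not called. The sequences are the reference of RefSeq on GRCr8, not those of the 3 strains, and run from 250 bases before to 50 bases after the annotated start, 5′ to 3′ on the strand of the gene. The genes were matched by RefSeq protein accession, which gave a region for 14 members. Since some histone copies encode one protein, such a match names a protein more surely than a copy. *Hist1h1a* lies on the plus strand in the deposited tables and on the minus strand in GRCr8. Capitals mark matches on either strand to TATAAA (the TATA box), CCAAT (the CCAAT box) and ATTTGCAT (the octamer known from H2B promoters), which do not overlap one another in these regions. Letters in capitals that read TTTATA or ATTGG are matches on the other strand. The windows are chr17:47181891-47182190 (- strand) for *Hist1h2bc* (RefSeq symbol *H2bc12*), chr17:41794819-41795118 (- strand) for *Hist1h1a* (*H1f1*), chr10:44225171-44225470 (+ strand) for *Hist3h2ba*, chr2:186467974-186468273 (+ strand) for *Hist2h2ab* (*H2ac21*) and chr14:85526019-85526318 (- strand) for *H2afv* (*H2az2*).
Hist1h2bc: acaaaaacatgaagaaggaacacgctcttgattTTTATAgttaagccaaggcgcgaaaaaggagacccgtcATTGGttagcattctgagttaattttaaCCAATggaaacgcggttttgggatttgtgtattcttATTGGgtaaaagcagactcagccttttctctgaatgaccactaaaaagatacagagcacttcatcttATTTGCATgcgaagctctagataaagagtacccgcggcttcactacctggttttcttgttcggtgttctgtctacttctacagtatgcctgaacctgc
Hist1h1a: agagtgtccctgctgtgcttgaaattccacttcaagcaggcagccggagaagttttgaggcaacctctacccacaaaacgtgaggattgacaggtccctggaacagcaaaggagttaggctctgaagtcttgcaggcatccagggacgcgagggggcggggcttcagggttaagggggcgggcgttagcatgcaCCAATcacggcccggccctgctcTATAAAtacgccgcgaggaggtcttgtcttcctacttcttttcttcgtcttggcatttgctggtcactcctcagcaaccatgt
Hist3h2ba: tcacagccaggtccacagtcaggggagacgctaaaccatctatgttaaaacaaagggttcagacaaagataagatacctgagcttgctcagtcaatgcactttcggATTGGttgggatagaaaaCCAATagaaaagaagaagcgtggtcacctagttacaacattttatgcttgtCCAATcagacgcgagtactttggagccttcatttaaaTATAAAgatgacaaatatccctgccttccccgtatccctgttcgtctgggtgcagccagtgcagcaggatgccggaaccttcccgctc
Hist2h2ab: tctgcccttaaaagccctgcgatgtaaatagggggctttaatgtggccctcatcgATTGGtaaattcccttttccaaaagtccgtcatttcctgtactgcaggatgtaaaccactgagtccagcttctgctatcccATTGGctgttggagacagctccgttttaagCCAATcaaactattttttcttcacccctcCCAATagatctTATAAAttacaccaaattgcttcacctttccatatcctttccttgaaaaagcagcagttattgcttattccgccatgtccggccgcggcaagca
H2afv: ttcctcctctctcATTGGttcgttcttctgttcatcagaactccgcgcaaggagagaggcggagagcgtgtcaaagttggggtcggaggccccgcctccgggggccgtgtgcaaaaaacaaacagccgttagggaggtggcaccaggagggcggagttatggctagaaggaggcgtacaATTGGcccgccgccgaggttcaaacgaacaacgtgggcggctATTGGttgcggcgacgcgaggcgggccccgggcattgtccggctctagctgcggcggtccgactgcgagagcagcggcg

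CCAAT matched in 13 of the 14 member regions and in 37.7% of 27457 RefSeq regions of the same length. TATAAA matched in 9 of 14 and in 14.3% of all regions. The match lay on the strand of the gene in *Hist1h1a*, *Hist1h1b*, *Hist2h2ab*, *Hist1h2ak* and *Hist3h2ba*. It lay only on the other strand in *Hist1h2af*, *Hist1h2bc*, *Hist1h2bm* and *H2afx*. In *Hist1h1a*, *Hist3h2ba* and *Hist2h2ab* TATAAA began at -33, -38 and -44 relative to the start, on the strand of the gene. The octamer matched in 3 of 14, *Hist1h2bc*, *Hist1h2bd* and *Hist1h2af*, and in 1.64% of all regions. In *Hist1h2bc* it began at -48, and the only TATAAA match lay at -217 on the other strand. The region of *Hist1h2bc* overlaps that of *LOC680322* (*H2ac12*) by 248 bases, so this divergent H2B and H2A pair shares most of the stretch shown, including that TATAAA match. A match is a description of letters in the reference, and sequences of the strains were not used here.

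Each of the 3 linker histone members had its highest value in SHR. *Hist1h1a* (ENSRNOG00000017175, chromosome 17, 48526427 to 48527170), which encodes H1.1, stood at 4.04 FPKM (1.89 to 6.19) in Dahl S, 7.45 (4.45 to 10.4) in SHR and 2.36 (1.01 to 3.71) in Dahl R. It was higher in SHR than in Dahl R, with a log2 ratio of 1.33 and limits apart. Against SHR the Dahl S ratio was -0.75, under the size rule. *Hist1h1t*, the testis-specific H1, stood at 2.84 FPKM (1.17 to 4.52) in Dahl S, 4.36 (2.39 to 6.33) in SHR and 1.69 (0.625 to 2.76) in Dahl R. Its log2 ratio of 0.99 for SHR over Dahl R fell just short of the call, and the limits of all 3 libraries overlapped. *Hist1h1b* (H1.5), under the minimum, stood at 0.644 FPKM in Dahl S, 1.54 in SHR and 0.565 in Dahl R.

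Of 5 linker histone records outside the name rule 3 were measured, and the most abundant, *H1f0* and *H1fx*, were also highest in SHR. *H1f0*, which encodes the replication-independent H1.0 of resting cells, stood at 78.6 FPKM (55.8 to 101) in Dahl S, 181 (120.02 to 241) in SHR and 79.4 (56.01 to 103) in Dahl R. Its SHR value was higher than that of Dahl R (log2 ratio 1.18), and the Dahl S value was lower than that of SHR (-1.19), with limits apart both times. *H1fx*, the gene of H1.10, stood at 29.9 FPKM (19.2 to 40.6) in Dahl S, 56.01 (39.1 to 72.9) in SHR and 29.95 (19.8 to 40.1) in Dahl R, and was under the size rule in each pair. The testis gene *Hils1* had its lowest value in SHR, at 1.51 FPKM in Dahl S, 0.504 in SHR and 1.11 in Dahl R. *H3f3b*, which encodes the replication-independent H3.3, also had its highest value in SHR, at 136 FPKM (95.5 to 177) in Dahl S, 177 (119 to 235) in SHR and 108 (76.0 to 141) in Dahl R, with overlapping limits and no call. Another record described as H3.3, *LOC100364712*, was instead highest in Dahl S, at 13.4 FPKM in Dahl S, 11.9 in SHR and 10.8 in Dahl R. It was not called either. Of 8 replication-independent histones in a list of such genes outside the rule, 5 were measured, and *H1f0* was the one called, with list medians of -0.003 for Dahl S over Dahl R, -0.38 for Dahl S over SHR and 0.70 for SHR over Dahl R.

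The 11 H2B members were all measured and all had a ratio above 0 in Dahl S over Dahl R, with a median of 0.46 and a range of 0.07 to 0.94, none reaching the call. In SHR over Dahl R 9 of 11 were above 0 (median 0.44), and in Dahl S over SHR 7 of 11 (median 0.15). Over all protein-coding records the medians were near 0, as given above. Of 14183 measured records, 7959 lay above 0 in Dahl S over Dahl R, 7055 in Dahl S over SHR and 7870 in SHR over Dahl R. Of the 883 spanning under 1000 bases, 546, 450 and 529 did, in the same order of pairs. Whether the H2B copies share fragments was not tested, so they are not given as independent records. *Hist3h2ba* (ENSRNOG00000043419, chromosome 10, 45238123 to 45238752), of the small cluster on chromosome 10, stood at 2.69 FPKM (0.995 to 4.39) in Dahl S, 3.88 (1.99 to 5.77) in SHR and 0.926 (0.136 to 1.72) in Dahl R. It was higher in SHR than in Dahl R (log2 ratio 1.34, 4.19 times in FPKM), with limits apart. The Dahl S value lay between, and its log2 ratio of 0.94 over Dahl R was the largest H2B ratio in that pair. *Hist1h2bh* had log2 ratios of 0.31, 0.22 and 0.09 for Dahl S over Dahl R, Dahl S over SHR and SHR over Dahl R. Its locus also holds a protein-coding record on the opposite strand, at 40.9 FPKM in Dahl S, 23.3 in SHR and 28.2 in Dahl R, and a long non-coding record at 46.0, 27.0 and 30.3 FPKM in the same order, so its fragments cannot be separated from theirs. The 8 other H2B members, among them the testis-specific *Hist1h2ba*, lay between 0.685 and 4.60 FPKM in all libraries, with no limits apart.

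Of the 11 members with an H2A name, *Hist1h2ail* among them, 9 were measured, and none was called in any pair. Their ratios were above 0 for 4 of 9 in Dahl S over Dahl R (median -0.14), 5 of 9 in Dahl S over SHR (median 0.08) and 4 of 9 in SHR over Dahl R (median -0.14). The counts over all measured protein-coding records are those given above beside the H2B members. *Hist2h2ac*, of the cluster on chromosome 2, stood at 21.1 FPKM (12.3 to 29.8) in Dahl S, 22.96 (14.5 to 31.4) in SHR and 31.1 (19.8 to 42.4) in Dahl R. *Hist2h2ab*, its neighbour, stood at 8.17 FPKM (3.88 to 12.5) in Dahl S, 8.95 (4.93 to 12.96) in SHR and 12.97 (7.34 to 18.6) in Dahl R. Both were highest in Dahl R, with limits that overlapped in all libraries. *Hist3h2a* stood at 12.6 FPKM (8.26 to 16.996) in Dahl S, 11.3 (7.61 to 14.96) in SHR and 10.8 (7.11 to 14.4) in Dahl R, with no ratio above 0.21. The 6 other measured members ranged from 0.848 to 3.36 FPKM.

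The highest value was a median of 1.104 times the lowest over the 5 measured H2A variants, whose means of 5.78 to 98.6 FPKM are above those of most other members, and their log2 ratios in all pairs lay between -0.37 and 0.55. *H2afx*, whose protein H2A.X is phosphorylated at DNA breaks, stood at 16.4 FPKM (10.8 to 22.05) in Dahl S, 13.2 (8.94 to 17.5) in SHR and 14.6 (9.74 to 19.5) in Dahl R. *H2afv*, which encodes H2A.Z.2, a variant found at promoters, stood at 15.1 FPKM (10.4 to 19.8) in Dahl S, 15.2 (10.8 to 19.6) in SHR and 14.6 (10.3 to 18.9) in Dahl R, and shares its locus with a small nucleolar RNA record of at most 2.04 FPKM. *H2afy2*, the gene of macroH2A2, had the widest spread of them, at 5.39 FPKM (3.28 to 7.503) in Dahl S, 7.28 (4.85 to 9.72) in SHR and 4.65 (2.88 to 6.42) in Dahl R, and no limits were apart. The variant gene *H2afb3* was listed at 0 in SHR, while Dahl S had 1.23 FPKM and Dahl R 0.309 FPKM. Both of those values had a lower limit of 0.

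The only member with an H3 name, *Hist2h3c2*, stood at 4.37 FPKM (1.64 to 7.11) in Dahl S, 3.19 (1.305 to 5.08) in SHR and 2.32 (0.724 to 3.91) in Dahl R, with overlapping limits and a log2 ratio of 0.70 for Dahl S over Dahl R. The 4 H4 members were lowest in SHR. *Hist1h4b* is given above, and *Hist2h4a* stood at 5.801 FPKM (2.15 to 9.46) in Dahl S, 3.47 (1.25 to 5.69) in SHR and 5.02 (1.97 to 8.06) in Dahl R. *Hist2h4* and *Hist1h4m* ranged from 3.07 to 4.91 FPKM over the libraries. None was called, and limits overlapped in every pair. Log2 ratios were above 0 in 4 of 4 for Dahl S over SHR (median 0.57, range 0.16 to 0.79) and below 0 in 4 of 4 for SHR over Dahl R (median -0.42, range -0.88 to -0.36). For Dahl S over Dahl R they were above 0 in 2 of 4 (median 0.04). Of 14183 measured protein-coding records, 7055 were above 0 for Dahl S over SHR and 6311 below 0 for SHR over Dahl R. Whether the H4 members share fragments with one another was not tested.

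Under other names the tables hold 34 further protein-coding records described as histones, 28 of them measured. Of these 28, 3 were called in Dahl S over Dahl R (10.7%), 4 in Dahl S over SHR (14.3%) and 2 in SHR over Dahl R (7.14%). In the same order, calls made up 1.97%, 2.97% and 2.78% of protein-coding records. They made up 3.96%, 4.98% and 3.62% of those spanning under 1000 bases. Among the 28, *H1f0* was the only record with limits apart. The H2B record *LOC684797* stood at 4.94 FPKM in Dahl S, 3.91 in SHR and 1.91 in Dahl R, and was higher in Dahl S than in Dahl R (log2 ratio 1.03). The H3 record *LOC682330* stood at 3.24 FPKM in Dahl S, 1.61 in SHR and 0.781 in Dahl R, and was also higher in Dahl S than in Dahl R (1.25). The H3 record *D3ZCY4_RAT*, at 2.11 FPKM in Dahl S, 0.494 in SHR and 1.49 in Dahl R, was higher in Dahl S than in SHR (1.06). The other calls were of *H1f0* and of H4 records. All 6 measured H4 records under other names also had their lowest value in SHR, with ratios above 0 for Dahl S over SHR (median 0.72) and below 0 for SHR over Dahl R (median -0.81). Whether they share fragments with the H4 members was not tested, so they are not given as an independent set. *LOC679983* stood at 6.75 FPKM (2.73 to 10.8) in Dahl S, 1.80 (0.355 to 3.24) in SHR and 6.502 (2.88 to 10.1) in Dahl R, and *RGD1562378* at 13.2 FPKM (6.64 to 19.7) in Dahl S, 5.28 (2.31 to 8.24) in SHR and 5.57 (2.29 to 8.85) in Dahl R. *LOC679983* was lower in SHR than in Dahl R (log2 ratio -1.42) and higher in Dahl S than in SHR (1.47), with overlapping limits. *RGD1562378* was called higher in Dahl S against both others, also with overlapping limits.

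**Figure D4:**
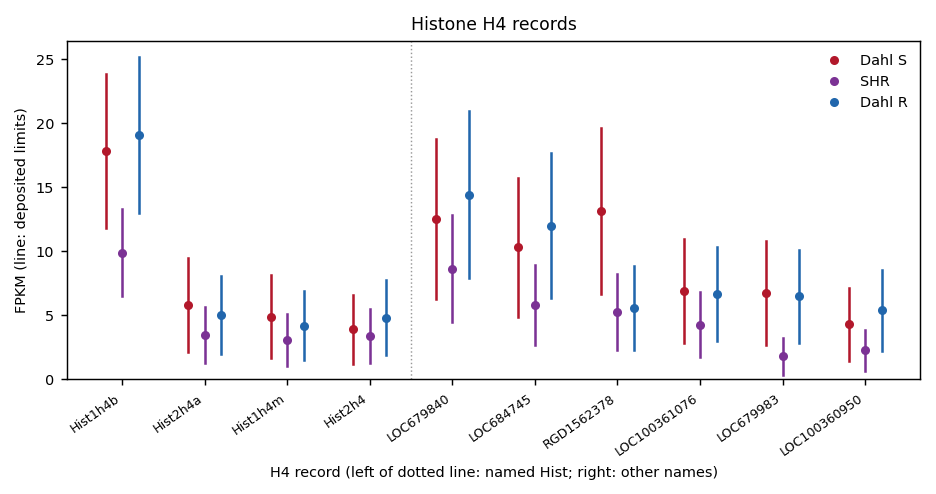
FPKM of the 10 histone H4 records in Dahl S, SHR and Dahl R, with the 4 members left of the dotted line and the 6 records under other names right of it. Points are values and lines the deposited limits; the SHR value is the lowest for each record, and the limits overlap.

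No gene of the lists for histone messages, chaperones or dividing cells was called. Calls made up 1.97% of protein-coding records in Dahl S over Dahl R, 2.97% in Dahl S over SHR and 2.78% in SHR over Dahl R. With shares this small, lists of 11 to 17 measured genes may hold no call, so the absence of calls says little. In the list of proliferation and S phase genes 18 of 25 were matched and 17 measured, and none was called in any pair. *Mki67*, *Top2a*, *Mcm5*, *Rrm1*, *Tk1*, *Birc5* and *Uhrf1* of this list had no record matched. The list had medians of 0.09 for Dahl S over Dahl R, -0.02 for Dahl S over SHR and 0.06 for SHR over Dahl R. In that order of pairs 11, 8 and 11 of the 17 had a ratio above 0, as did 7959, 7055 and 7870 of 14183 measured protein-coding records. The largest ratios for Dahl S over Dahl R were 0.72 for *Ccna2* and 0.68 for *Cdk1*. For Dahl S over SHR these genes had 0.42 and 0.71, and for SHR over Dahl R 0.30 and -0.03. The replication clamp *Pcna* stood at 45.4 FPKM (31.8 to 58.9) in Dahl S, 48.5 (34.5 to 62.5) in SHR and 47.6 (33.7 to 61.5) in Dahl R, and the helicase subunit *Mcm7* at 11.98 FPKM (8.195 to 15.8) in Dahl S, 14.2 (10.05 to 18.4) in SHR and 12.9 (8.997 to 16.8) in Dahl R. In neither were limits apart. In a list drawn up for histone message synthesis and processing 11 of 19 genes were matched and measured, with 0 called and medians of 0.08, 0.22 and -0.12 in the same order of pairs. *Ncbp1*, of the complex that binds the message cap, stood at 32.2 FPKM (22.9 to 41.5) in Dahl S, 26.6 (18.9 to 34.2) in SHR and 35.8 (25.4 to 46.1) in Dahl R. *Pnrc1*, whose part in histone messages is not established here, stood at 38.97 FPKM (27.4 to 50.5) in Dahl S, 27.6 (19.5 to 35.7) in SHR and 23.1 (16.1 to 30.1) in Dahl R. *Slbp*, the stem-loop binding protein, had no record matched by name. Among histone chaperones 17 of 21 were matched and measured, 0 called, with medians of 0.03, -0.001 and 0.04. *Nap1l4*, a chaperone of H2A and H2B, stood at 49.3 FPKM in Dahl S, 50.7 in SHR and 48.1 in Dahl R, and *Znhit1*, a subunit of the complex that deposits H2A.Z, at 95.9 FPKM in Dahl S, 80.01 in SHR and 81.8 in Dahl R.

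Markers of other cell types differed between the same libraries. Of 8 measured T and B lymphocyte markers, 3 were lower in SHR than in Dahl R (*Cd3d*, *Cd3e* and *Cd3g*, parts of the T cell receptor complex) and none was higher. Over protein-coding records 1.21% were lower in that pair. *Cd3e* stood at 2.29 FPKM in Dahl S, 0.785 in SHR and 3.403 in Dahl R, and *Cd3g* at 2.92 FPKM in Dahl S, 0.819 in SHR and 4.34 in Dahl R. The list's median log2 ratio for SHR over Dahl R was -0.86 and its summed level was 25.9 FPKM in Dahl S, 15.7 in SHR and 28.4 in Dahl R, with *Cd3d* listed at 0 in SHR. The B cell receptor gene *Cd79a*, the most abundant of the list, was instead highest in SHR, at 4.94 FPKM in Dahl S, 5.72 in SHR and 3.52 in Dahl R, and was not called. *Hbb*, a beta globin, stood at 3089.7 FPKM in Dahl S, 711 in SHR and 1209 in Dahl R. Red blood cell genes summed to 13028 FPKM in Dahl S, 3195 in SHR and 5446 in Dahl R, and 4 of 6 measured, all globins, were higher in Dahl S against each of the others. Over protein-coding records 1.07% were higher in Dahl S than in Dahl R, and 1.58% were higher in Dahl S than in SHR. *Slc4a1*, the anion exchanger of red cells that the kidney also expresses, was highest in SHR, at 144 FPKM in Dahl S, 224 in SHR and 115 in Dahl R, and was not called. Macrophage and dendritic cell genes, none of 10 called in any pair, summed to 524 FPKM in Dahl S, 432 in SHR and 445 in Dahl R. Over protein-coding records 1.97%, 2.97% and 2.78% were called, in the order of pairs used above. *Lyz2*, a lysozyme, stood at 283 FPKM in Dahl S, 262 in SHR and 246 in Dahl R, and *C1qc*, a chain of complement C1q, at 53.3 FPKM in Dahl S, 38.04 in SHR and 46.1 in Dahl R. Proximal tubule genes, which mark the labelled tissue, were present in all libraries, with sums of 4936 FPKM in Dahl S, 3657 in SHR and 4976 in Dahl R, and 0 of 11 had a ratio above 0 in SHR over Dahl R. Of 14183 measured protein-coding records, 7870 were above 0 in that pair. *Gatm*, the first enzyme of creatine synthesis, was lower in SHR than in Dahl R and higher in Dahl S than in SHR, at 241 FPKM in Dahl S, 113 in SHR and 241 in Dahl R, and *Pck1*, an enzyme of gluconeogenesis, was lower in Dahl S than in Dahl R, at 90.4 FPKM in Dahl S, 164 in SHR and 324 in Dahl R. The sums of all 4 lists were lowest in SHR, the library in which *Hist1h2bc* and the H4 records were lowest. The linker histone members, *H1f0*, *H1fx* and *H3f3b* were instead highest in SHR. Single genes of the lists also differed from their sums, with *Lyz2* lowest in Dahl R. The part of these cell types in the histone values was not tested.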

How the data were processed

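Kidney RNA of 3 libraries, 1 per strain, was analysed from deposited tables. The deposited FPKM values carry a lower and an upper limit. The submitters' processing notes name TopHat 1.3.1 (an aligner) and Cufflinks 1.0.3 (which estimates FPKM). Build, annotation release, strand use and fragment totals: not given in the sources used here. Record spans were deposited by the authors as another column and equal end minus start for 33192 of 33194 records, so starts were raised by 1 to count from 1. Members were found by name, and log2((FPKM + 1)/(FPKM + 1)) was computed for 3 pairs, with calls at a size of 1 among records averaging at least 1 FPKM. No model was fitted and no p-value computed, since there are no replicates. The size rule was tested on simulated data.

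Named are *Hist1h2bc*, members with a mean of at least 5 FPKM, the 2 most abundant of each type and the called ones. From each other list come up to 3 called members or, with none called, the 2 most abundant. *Slbp*, *Ccna2*, *Cdk1*, *Cd79a*, *Slc4a1*, *Hist1h1b*, *H2afb3*, neighbours of *Hist1h2bc* and histone records outside the rule were named after their values were seen. The unmatched proliferation genes were also named beyond this rule. Members and lists were chosen with earlier results of these data known. A list of 8 RNAs without a poly(A) tail or kept in the nucleus had 0 matches by name. RefSeq names and start regions belong to GRCr8, and 15 members matched by protein accession, 1 of them (*Hist1h2ail*) to the gene of *Hist2h3c2*, so no region was taken for it. Python 3.11.15, numpy 2.4.6 and pandas 2.3.3 were used, with matplotlib 3.10.9 for the plots.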

Additional observations from a re-analysis of the deposited data

How the results depend on the processing

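The calls of *Hist1h2bc* between SHR and both Dahl strains held under both pseudocounts and both scalings, and no called ratio changed sign. Some named ratios near 0 did: with median-of-ratios scaling those of *H2afj* (-0.03), *H2afy* (-0.03) and *H2afv* (-0.02) for Dahl S over Dahl R, and with upper-quartile scaling those of *H2afv* for Dahl S over SHR (0.03) and SHR over Dahl R (-0.0008). Counts of called members were 0, 1 and 3 for Dahl S over Dahl R, Dahl S over SHR and SHR over Dahl R. Scaling by median of ratios or upper quartile, leaving out members that share a locus, summing records of a locus and requiring limits apart left these counts as they were. With a pseudocount of 0.1 the first count was 2 and the third 5, and with a pseudocount of 5 the third was 1. With no minimum mean the first was 1 and the second 2. With a minimum mean of 5 FPKM, which left 11 members, the third was 1, and the median log2 ratio was 0.0461 for the first pair and -0.0686 for the third. Of the named members' ratios, 2 were no longer called with a pseudocount of 5, those of *Hist1h1a* (0.76) and *Hist3h2ba* (0.58) for SHR over Dahl R, since a larger pseudocount shrinks ratios of low records. With 0.1 added, 2 more of the named ratios were called, *Hist1h1t* for SHR over Dahl R (1.32) and *Hist3h2ba* for Dahl S over Dahl R (1.44). The directions by type for H2B and H4 held under both scalings in the pairs where all members lay on 1 side, an alternative chosen after seeing the data. The H2A variants had 5 of 5 above 0 in Dahl S over Dahl R as deposited and 2 of 5 after median-of-ratios scaling. No paired analysis was possible because each strain has 1 library. Depth limits the low members most, and the lower limit was above 0 for 30 of 36 members in Dahl S, 32 in SHR and 30 in Dahl R.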
